A study of Mus musculus with 28 samples.

Results

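The transcripts of 10 genes of muscle wasting and autophagy were followed in muscle of obese mice given aspirin with trimetazidine or solvent. They are the ubiquitin ligase genes Trim63 and Fbxo30, the transcription factor genes Foxo1 and Foxo3, the myostatin gene Mstn, and the autophagy and lysosome genes Bnip3, Gabarapl1, Map1lc3b, Sqstm1 and Ctsl. They were found by gene name, and all 10 of the 10 were among the 54189 genes listed for muscle and among the 11708 that passed a filter on low values. The level of Pdk4 was set beside them in every muscle. All animals were male Lepob/Lepob C57BL/6J mice, which lack functional leptin. From an age of 4 weeks they ate AMLN diet for 20 weeks, in which fat gave 40% of calories (18.5% trans-fat) and fructose 20%, with 2% cholesterol by weight. Treated mice were injected into the peritoneum each day with aspirin at 3.0 and trimetazidine at 5.0 mg per kg, and vehicle mice with solvent. At 40 d there were 6 treated and 6 vehicle muscles, and at 24 h 1 of each. The labels give the tissue as muscle without naming which one, and lean or chow-fed mice were not analysed here.

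Muscle mass is set by the balance of protein synthesis and breakdown. When insulin and growth factor signalling through Akt is low, FoxO transcription factors enter the nucleus and switch on ubiquitin ligases, which mark muscle proteins for the proteasome, and genes of autophagy, in which membranes enclose cell contents and deliver them to lysosomes. Myostatin, secreted by muscle itself, limits muscle growth through activin receptors and Smad proteins. Pdk4 encodes a kinase that switches off the pyruvate dehydrogenase complex, which lets muscle burn fat in place of glucose, and it is itself a known target of FoxO factors, glucocorticoids and PPAR receptors. Transcript levels do not measure the rate of autophagy or of protein breakdown.

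Gene-assigned reads came to 16.1 to 19.7 M per treated muscle and 16.3 to 19.9 M per vehicle muscle at 40 d. FPKM are fragments scaled for the length of a gene and for a size factor of its library. The median ratio of a library's genes to their geometric means over libraries was 1.0058 in every muscle at 40 d. The deposited values were thus already equalized by such ratios, and not by depth alone. Fast muscle markers were high throughout. Myh4, the myosin of the fastest fibres, was at 4167 to 6572 FPKM in treated and 4423 to 5792 FPKM in vehicle muscles. Myh7, the myosin of slow fibres, ran over a wide range, from 8.90 to 133 FPKM in treated and from 15.5 to 157 FPKM in vehicle muscles. The fat cell gene Adipoq was present at 37.9 to 281 FPKM in treated and 71.4 to 269 FPKM in vehicle muscles, and the liver gene Alb reached 14.2 FPKM in treated and 98.0 FPKM in vehicle muscles. Libraries 5_5 and 6_1 stood apart. The treated muscle numbered 5_5 held the highest value of the 12 in 23.6% and the lowest in 23.3% of the tested genes, and had the lowest precision weight (0.18, on a scale where libraries average near 1). The vehicle muscle 6_1 held the highest value in 17.9% and the lowest in 12% of genes, with the next lowest weight (0.32); the other 10 muscles held the highest in 2.9% to 9.4% and the lowest in 3.3% to 12.4%. For the 10 genes and Pdk4, results that rest on 5_5 or 6_1 are given with and without that library where both were computed. In whole tissue, fewer cells of a type and less RNA per cell cannot be told apart.

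Promoter sequences are shown for a gene known to respond to FoxO factors (Trim63), for the 1 gene of the set with an unadjusted p under 0.05 for treatment (Bnip3), for the gene that followed Pdk4 most closely (Fbxo30), and for Pdk4. They are RefSeq sequences of GRCm38.p6, windows that run from upstream of RefSeq's annotated start into the first bases after it, written 5′ to 3′ on the gene's strand, with positions counted back from the start. Capitals mark any copy, on either strand, of the FoxO core motif GTAAACA, the palindromic E-box CACGTG bound by basic helix-loop-helix factors, and the glucocorticoid receptor hexamer AGAACA.
Trim63, chr4:134314870-134315169, plus strand: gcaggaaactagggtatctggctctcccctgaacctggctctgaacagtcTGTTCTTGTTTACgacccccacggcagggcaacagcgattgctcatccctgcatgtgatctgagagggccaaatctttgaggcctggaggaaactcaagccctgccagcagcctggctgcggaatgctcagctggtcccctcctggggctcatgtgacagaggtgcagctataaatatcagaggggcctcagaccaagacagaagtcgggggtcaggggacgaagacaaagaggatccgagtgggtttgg
Bnip3, chr7:138909457-138909756, minus strand: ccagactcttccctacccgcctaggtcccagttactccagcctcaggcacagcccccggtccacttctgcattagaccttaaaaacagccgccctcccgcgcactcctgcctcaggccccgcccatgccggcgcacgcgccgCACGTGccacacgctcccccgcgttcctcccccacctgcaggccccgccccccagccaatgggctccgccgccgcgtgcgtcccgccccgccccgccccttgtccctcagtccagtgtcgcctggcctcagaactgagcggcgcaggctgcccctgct
Fbxo30, chr10:11281337-11281636, plus strand: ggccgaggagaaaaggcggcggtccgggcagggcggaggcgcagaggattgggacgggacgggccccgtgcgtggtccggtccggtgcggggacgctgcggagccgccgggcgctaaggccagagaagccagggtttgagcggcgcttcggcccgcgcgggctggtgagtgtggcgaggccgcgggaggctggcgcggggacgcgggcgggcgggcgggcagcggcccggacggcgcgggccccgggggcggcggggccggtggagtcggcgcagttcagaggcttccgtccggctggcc
Pdk4, chr6:5496229-5496528, minus strand: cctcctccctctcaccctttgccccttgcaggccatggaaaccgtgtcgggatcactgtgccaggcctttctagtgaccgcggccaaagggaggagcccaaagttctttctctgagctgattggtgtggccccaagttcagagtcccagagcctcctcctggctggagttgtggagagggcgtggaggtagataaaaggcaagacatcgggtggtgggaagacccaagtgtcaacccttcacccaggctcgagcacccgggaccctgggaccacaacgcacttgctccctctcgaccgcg
The Trim63 window held a FoxO core on its minus strand at position -194 from the start, directly after a glucocorticoid receptor hexamer on the same strand at -200, and a TATAAA box at -31. The Bnip3 window held an E-box at -108. The Fbxo30 and Pdk4 windows held none of these 4 motifs. Over the 11 promoters of the set and Pdk4, 1 had GTAAACA, 2 had CACGTG (Bnip3 and Ctsl), 1 had AGAACA and 3 had TATAAA (Trim63, Mstn and Sqstm1). Among 32851 RefSeq promoter windows of the same length, the shares were 3.6%, 7.2%, 19.0% and 13.6% in the same order. RefSeq's starts differ from the gene starts of the deposited tables for some genes, and the Fbxo30 and Ctsl windows lie wholly inside the gene spans given here. A match describes letters and is no evidence of binding.

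After 40 d none of the 10 genes differed between treated and vehicle muscles beyond the spread between mice. By limma's moderated test on log2(FPKM + 1), with Benjamini-Hochberg adjustment over all genes, 0 of the 10 passed the threshold of 0.05 and each adjusted p was 0.999. Over all genes tested, 0 of 11708 passed (0.0%). At an unadjusted p under 0.05 there were 1 of the 10 genes (Bnip3) and 451 of all genes (3.85%). With limma voom on recovered reads, 0 of 11708 passed and 430 had an unadjusted p under 0.05, of which 1 was among the 10. The unadjusted count over all genes was 756 without treated 5_5, 909 without treated 5_5 and vehicle 6_1, and 1043 with array weights. It was 1083 with no filter on low values and 225 among genes averaging 5 FPKM or more. These last counts come from other numbers of genes than 11708, so they cannot be set beside 451. Among the 10 the count was 0 or 1 in each of these, and the 1 without both libraries was Ctsl (limma unadjusted p 0.0403, adjusted 0.630). Fbxo30, at a mean of 3.23 FPKM, was not tested among genes averaging 5 FPKM or more. In treated muscles 4 of the 10 were higher and 6 lower than in vehicle muscles, with a median log2 fold change of -0.03, against -0.00 over all genes tested. For no gene of the set did the groups fail to overlap, which 30 genes did in the table as a whole (0.256%). Over the 10 genes the 95% intervals of the fold changes reached from 0.523 (Foxo1) to 1.59 (Trim63), and that of Fbxo30 was 0.730 to 1.13. These unadjusted intervals are not detection limits. A change within the interval of a gene may not be detectable with 6 mice a group.

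**Figure D1:**
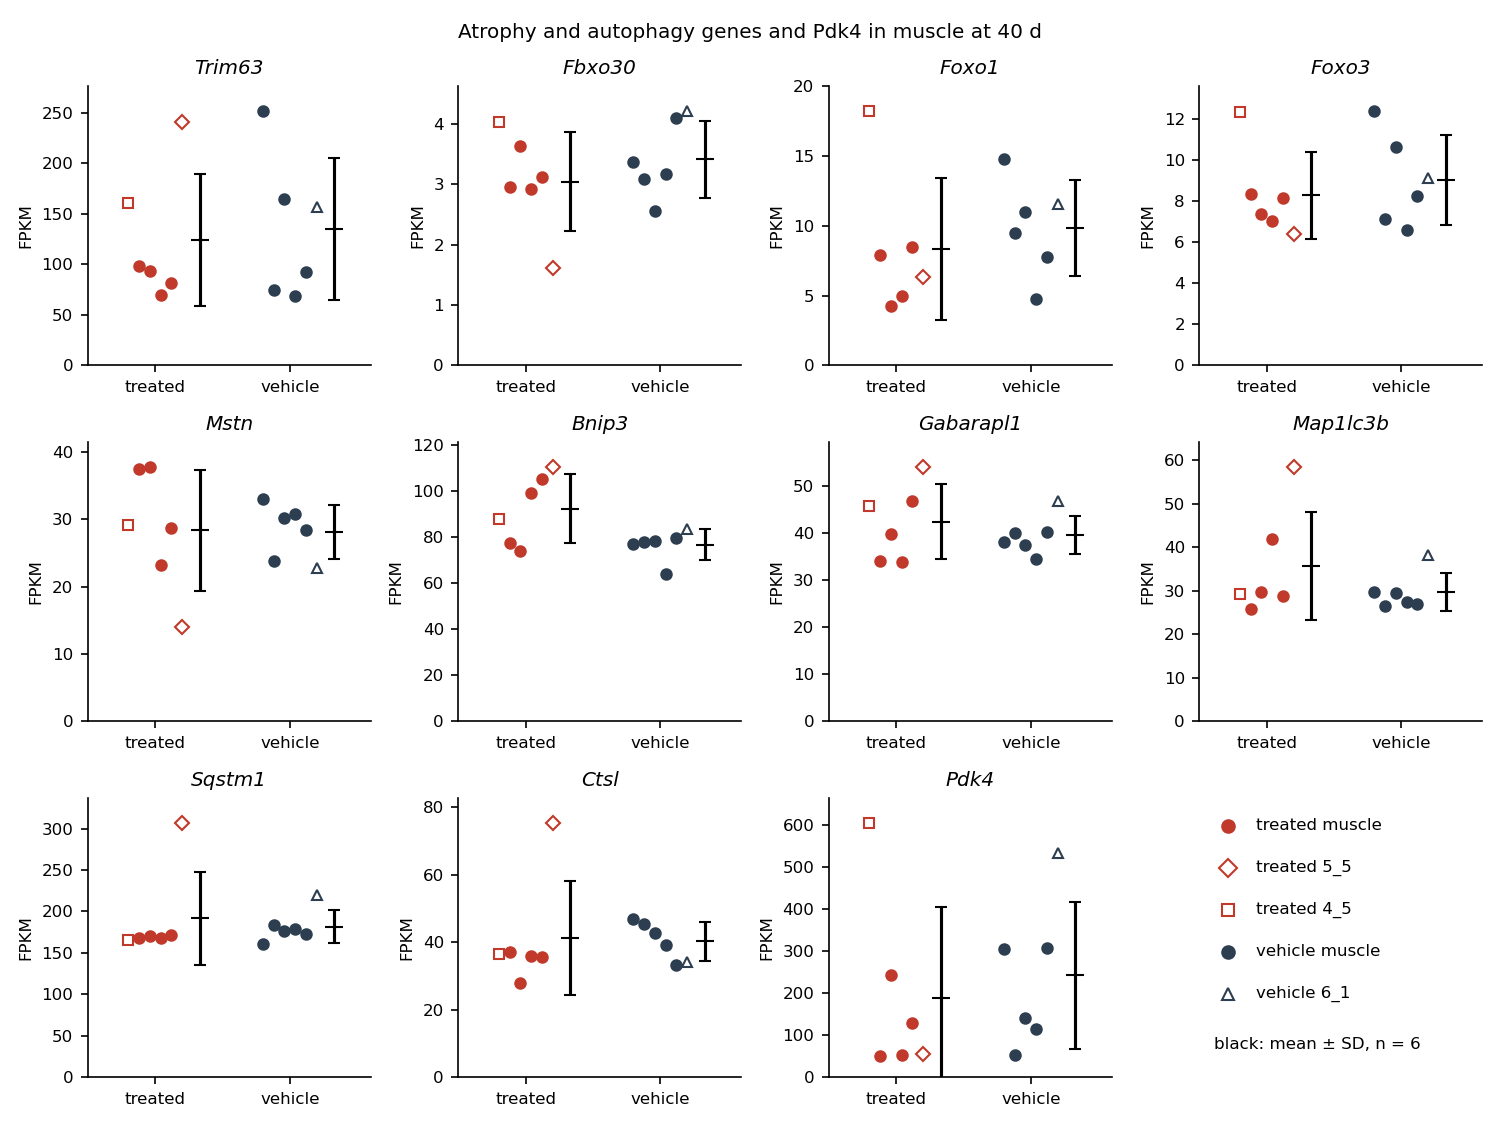
FPKM of the 10 genes and of Pdk4 in each muscle at 40 d, treated muscles (red) to the left of vehicle muscles (dark blue), with the mean and SD of 6 in black. Open diamonds mark treated 5_5, open squares treated 4_5 and open triangles vehicle 6_1; the groups overlap in every panel, and treated 5_5 is far above the others in Sqstm1 (306 FPKM) and Ctsl (75.2 FPKM). The lower SD bar of treated Pdk4 would pass below 0 and ends at the axis.

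Among the ubiquitin ligases, Trim63 was abundant and uneven from mouse to mouse. It encodes MuRF1, a RING ligase that marks thick filament proteins of the sarcomere (chr4:134315120-134329629, GRCm38, as are all gene positions here). Trim63 was at 69.8, 95.7 and 241 FPKM (lowest, median, highest of 6) in treated muscles and at 69.1, 125 and 252 FPKM in vehicle muscles. High and low values occurred in both groups: treated 5_5 (241 FPKM) and 4_5 (160.5 FPKM) were high, as were vehicle 2_1 (252 FPKM), 2_4 (165 FPKM) and 6_1 (157 FPKM), while the remaining muscles lay between 69.1 and 98.5 FPKM. The log2 fold change was -0.10 ± 0.36 (SE, n = 6 each), and it was -0.32 without treated 5_5.

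Fbxo30 encodes MUSA1, the F-box subunit of a ubiquitin ligase that BMP signalling holds down in mouse muscle (chr10:11281330-11298052). Its transcript was scarce, at 1.62, 3.04 and 4.03 FPKM in treated muscles and 2.55, 3.27 and 4.21 FPKM in vehicle muscles, which is 149 to 371 reads in a library. The lowest of the 12 was treated 5_5, below every vehicle muscle, and the other 5 treated muscles lay within the vehicle range. The log2 fold change was -0.14 ± 0.14 and shrank to -0.02 without that library. Fbxo32, which encodes the other muscle ligase atrogin-1 (chr15:58175879-58214932), had 0 to 4 reads in treated and 0 to 2 reads in vehicle muscles, with 0 reads in 4 of 6 muscles of each group. It was therefore below the filter and has no fold change here, although it is known as abundant in mouse muscle; why it is near 0 in this table was not tested.

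The FoxO factor genes Foxo1 and Foxo3 were lower on average in treated muscles, by less than their spread, while their relative Foxo4 was slightly higher. Foxo1 (chr3:52268336-52353221) was at 4.23, 7.11 and 18.2 FPKM in treated muscles and 4.73, 10.2 and 14.8 FPKM in vehicle muscles, a log2 fold change of -0.29 ± 0.30. Treated muscles held both the highest value (4_5, 18.2 FPKM) and the lowest (5_2, 4.23 FPKM), and without 4_5 the log2 fold change was -0.53 (limma unadjusted p 0.0461, adjusted p 0.9997). Foxo3 (chr10:42181841-42276755) was at 6.40, 7.79 and 12.3 FPKM in treated muscles and 6.61, 8.70 and 12.4 FPKM in vehicle muscles, with a log2 fold change of -0.11 ± 0.16, and -0.05 without treated 5_5. The treated muscle 4_5 was again the highest of its group, and the other 5 treated muscles lay between 6.40 and 8.34 FPKM. Foxo4, a relative read beside them, was the most abundant of these FoxO genes and the least variable, at 43.0 ± 2.19 FPKM in treated and 40.5 ± 4.32 FPKM in vehicle muscles (SD, n = 6 each; log2 fold change 0.09 ± 0.08, SE).

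Mstn (chr1:53061640-53068079) was nearly equal in the group means, at 28.4 ± 8.96 FPKM in treated and 28.2 ± 4.04 FPKM in vehicle muscles (SD, n = 6 each). Its values spread more among treated muscles, from 14.1 FPKM in 5_5 to 37.7 FPKM in 5_2, against 22.8 to 33.0 FPKM in vehicle muscles. The log2 fold change was -0.04 ± 0.20, and it was 0.13 without treated 5_5.

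Bnip3 was the gene of the set with the smallest p. It encodes a protein of the outer mitochondrial membrane that recruits autophagosomes to mitochondria (chr7:138890836-138909519). In treated muscles Bnip3 was at 87.7, 77.2, 74.1, 98.9, 105 and 110 FPKM (mice 4_5 and 5_1 to 5_5), and in vehicle muscles at 77.0, 78.0, 78.3, 63.7, 79.6 and 83.5 FPKM (mice 2_1, 2_3, 2_4, 2_5, 3_2 and 6_1). In 4 of 6 treated muscles it was above every vehicle muscle, and 2 treated muscles (5_1 and 5_2) lay within the vehicle range. The log2 fold change was 0.25 ± 0.12 (SE, n = 6 each; 95% interval 0.00 to 0.50), which is 1.19-fold, with a limma unadjusted p of 0.0472 and an adjusted p of 0.999. Leaving out 1 muscle at a time gave 0.20 to 0.31 with adjusted p of 0.819 to 1.0, and unadjusted p of 0.0167 to 0.114. The unadjusted p was under 0.05 in 3 of those 12 fits, without 5_1, 5_2 or 6_1, and it was 0.0890 without treated 5_5. Its relative Bnip3l, which has the same role, was at 25.5 ± 1.45 FPKM in treated and 23.3 ± 1.06 FPKM in vehicle muscles (SD), a log2 fold change of 0.13 ± 0.07 (SE) that did not pass. An antisense-strand gene model (Gm45507) overlaps 22.3% of the exonic bases of Bnip3, and the labels and files do not say whether reads were counted by strand.

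**Figure D2:**
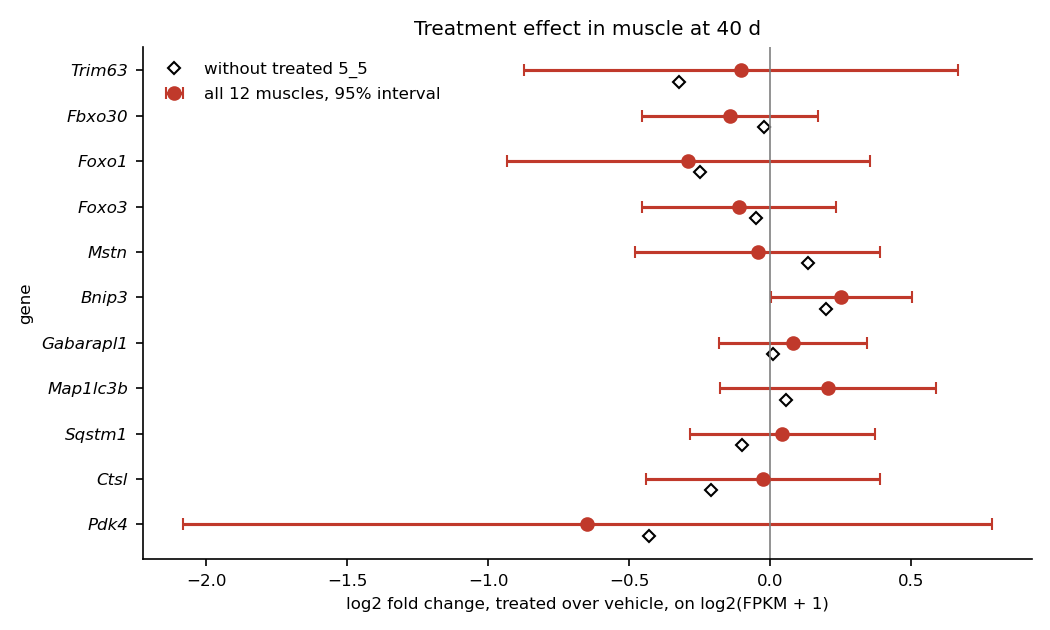
Log2 fold change of each gene, treated over vehicle, on log2(FPKM + 1) in muscle at 40 d, with the 95% interval of limma (red) and the value without treated 5_5 (open diamonds). All intervals but that of Bnip3 include 0, and without 5_5 the values of Mstn, Sqstm1 and Ctsl lie at 0.13, -0.10 and -0.21.

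The other autophagy and lysosome genes moved with single libraries more than with treatment. Gabarapl1 and Map1lc3b encode Atg8-family proteins, which are joined to lipid on the growing autophagosome. Gabarapl1 (chr6:129533160-129542346) was at 33.8, 42.8 and 54.0 FPKM in treated and 34.6, 39.1 and 46.9 FPKM in vehicle muscles, a log2 fold change of 0.08 ± 0.12, and 0.01 without treated 5_5. Map1lc3b (chr8:121590361-121598760) was at 25.8, 29.5 and 58.3 FPKM in treated and 26.5, 28.5 and 38.3 FPKM in vehicle muscles, a log2 fold change of 0.21 ± 0.18. Treated 5_5 (58.3 FPKM) and 5_3 (42.0 FPKM) were above every vehicle muscle for Map1lc3b, the other 4 treated muscles were not, and without 5_5 its fold change was 0.06.

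Sqstm1 encodes p62, the receptor that ties ubiquitin-marked cargo to the Atg8 proteins (chr11:50199366-50210827). It was the most abundant of the 10 genes, at 166, 170 and 306 FPKM in treated and 160, 177 and 220 FPKM in vehicle muscles. Apart from 5_5, the treated muscles lay within 166 to 171 FPKM, a narrower band than that of vehicle muscles. Ctsl encodes cathepsin L, a cysteine protease of lysosomes (chr13:64359337-64370890). It was at 27.8, 36.2 and 75.2 FPKM in treated and 33.2, 40.9 and 47.0 FPKM in vehicle muscles, and here too the highest value was 5_5 while the next treated muscle had 37.2 FPKM. The log2 fold changes were 0.04 ± 0.15 for Sqstm1 and -0.02 ± 0.19 for Ctsl with all muscles. They were -0.10 and -0.21 without 5_5, where limma's unadjusted p was 0.272 for Sqstm1 and 0.0856 for Ctsl, and its adjusted p 0.880 and 0.819. Gene models on the other strand overlap 28.3% of the exonic bases of Gabarapl1, 17.3% of Sqstm1 and 26.8% of Ctsl, and one on the same strand overlaps 6.1% of Ctsl, so a part of those reads may belong to the neighbours.

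Treated 5_5 held the highest value of the 12 muscles in 5 of the 10 genes (Bnip3, Gabarapl1, Map1lc3b, Sqstm1 and Ctsl) and the lowest in 3 (Fbxo30, Foxo3 and Mstn). In the same library the summed level of 31 proteasome subunits was 2422 FPKM, against 1376 to 1605 FPKM in the other treated muscles and 1419 to 1943 FPKM in vehicle muscles. Its summed adipocyte markers were also the highest of the 12 (1991 FPKM, against 310 to 1188 FPKM in the other treated and 572 to 1660 FPKM in vehicle muscles); 9 of the 10 listed markers passed the filter. The part of adipose RNA in these levels was not tested.

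**Figure D3:**
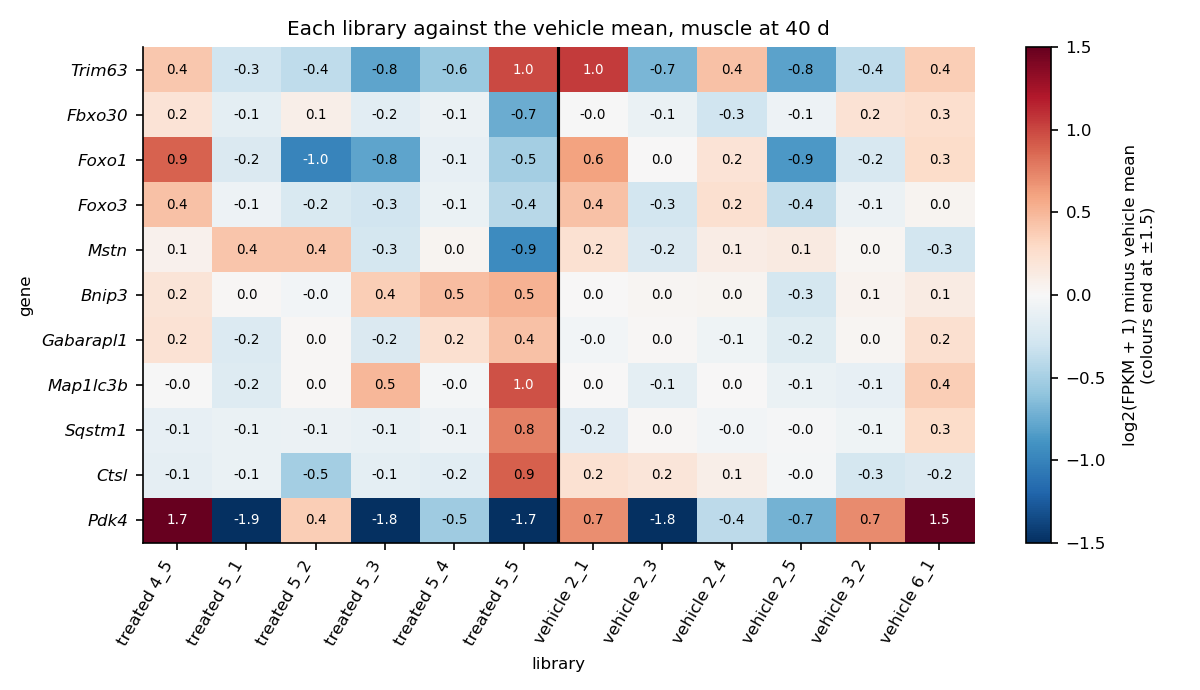
Each muscle at 40 d (columns, treated left of vehicle) against the vehicle mean, as a difference in log2(FPKM + 1), for the 10 genes and Pdk4 (rows). Colours end at ±1.5, and the printed numbers are the differences; the column of treated 5_5 is red for the autophagy genes and blue for Fbxo30, Foxo3 and Mstn.

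In wider lists of the same pathways no gene passed either. The median log2 fold change was -0.03 over 22 tested ubiquitin ligase and atrophy genes (7 higher, 15 lower), 0.03 over 31 proteasome subunits (22 higher, 9 lower), -0.01 over 28 genes of FoxO and Akt-mTOR signalling, 0.02 over 24 genes of myostatin, activin and BMP signalling, 0.00 over 30 core autophagy genes, -0.01 over 13 cargo receptor and mitophagy genes, -0.03 over 30 lysosomal genes and -0.05 over 8 calpain and caspase genes. These lists include the 10 genes themselves. The smallest p among core autophagy genes was that of Atg10, an E2-like enzyme of Atg12 conjugation, at 4.84 ± 0.51 FPKM in treated and 5.96 ± 0.92 FPKM in vehicle muscles (SD; limma unadjusted p 0.0180, adjusted 0.999). In FoxO and Akt-mTOR signalling it was that of Mtor, the growth kinase, at 5.29 ± 0.74 FPKM in treated and 6.04 ± 0.30 FPKM in vehicle muscles (SD; limma unadjusted p 0.0609, adjusted 0.999).

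Lists of stimuli known to act on these genes leaned lower in treated muscles without any gene passing. Of 13 glucocorticoid targets 10 were lower (median -0.24), and of 20 fasting and PPAR targets of muscle 17 were lower (median -0.22). Over all 11708 genes tested, 6014 were lower. All 8 slow fibre markers were lower too (median -0.12), and of 10 fast fibre markers 5 were higher and 5 lower. The summed slow fibre markers went the other way by median, at 646 FPKM in treated and 470 FPKM in vehicle muscles. The fasting and PPAR list summed to 4253 FPKM in vehicle 6_1. It summed to 1727 to 2586 FPKM in the other vehicle muscles and 1381 to 2458 FPKM in treated muscles. List medians without 6_1 were not computed. Slc25a20, the carnitine-acylcarnitine carrier of mitochondria, had the smallest p of the fasting and PPAR list, at 23.0 ± 3.82 FPKM in treated and 30.8 ± 7.47 FPKM in vehicle muscles (SD; log2 fold change -0.39 ± 0.15, SE; limma unadjusted p 0.0191, adjusted 0.999). Pdk4 itself was at 51.0, 92.6 and 604 FPKM in treated and 53.8, 223 and 533 FPKM in vehicle muscles, a log2 fold change of -0.65 ± 0.67 that did not pass. It ran from -1.11 to -0.35 as each muscle was left out and was -0.43 without treated 5_5. No marker of another cell type passed either. Both tested neutrophil markers, 2 of the 6 listed, had higher means in treated muscles (median log2 fold change 1.36). All 6 summed to 9.25 to 55 FPKM in treated and 5.08 to 12.1 FPKM in vehicle muscles. S100a9, a calcium-binding protein of neutrophils, was at 15.4 ± 10.4 FPKM in treated and 3.11 ± 2.24 FPKM in vehicle muscles (SD; log2 fold change 1.91 ± 0.42, SE; limma unadjusted p 0.000508, adjusted 0.778). Myog, the myogenin gene of muscle differentiation and denervation, was at 11.6 ± 3.67 FPKM in treated and 6.44 ± 1.04 FPKM in vehicle muscles (SD; log2 fold change 0.72 ± 0.17, SE; limma unadjusted p 0.000931, adjusted 0.778). All 5 blood markers had higher means (median log2 fold change 0.90; summed 340 to 2348 FPKM in treated and 485 to 1015 FPKM in vehicle muscles), and 7 of 8 fibroblast and tendon markers had lower means (median -0.25; summed 209 to 322 FPKM in treated and 281 to 383 FPKM in vehicle muscles). Their part in the values above was not tested.

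**Figure D4:**
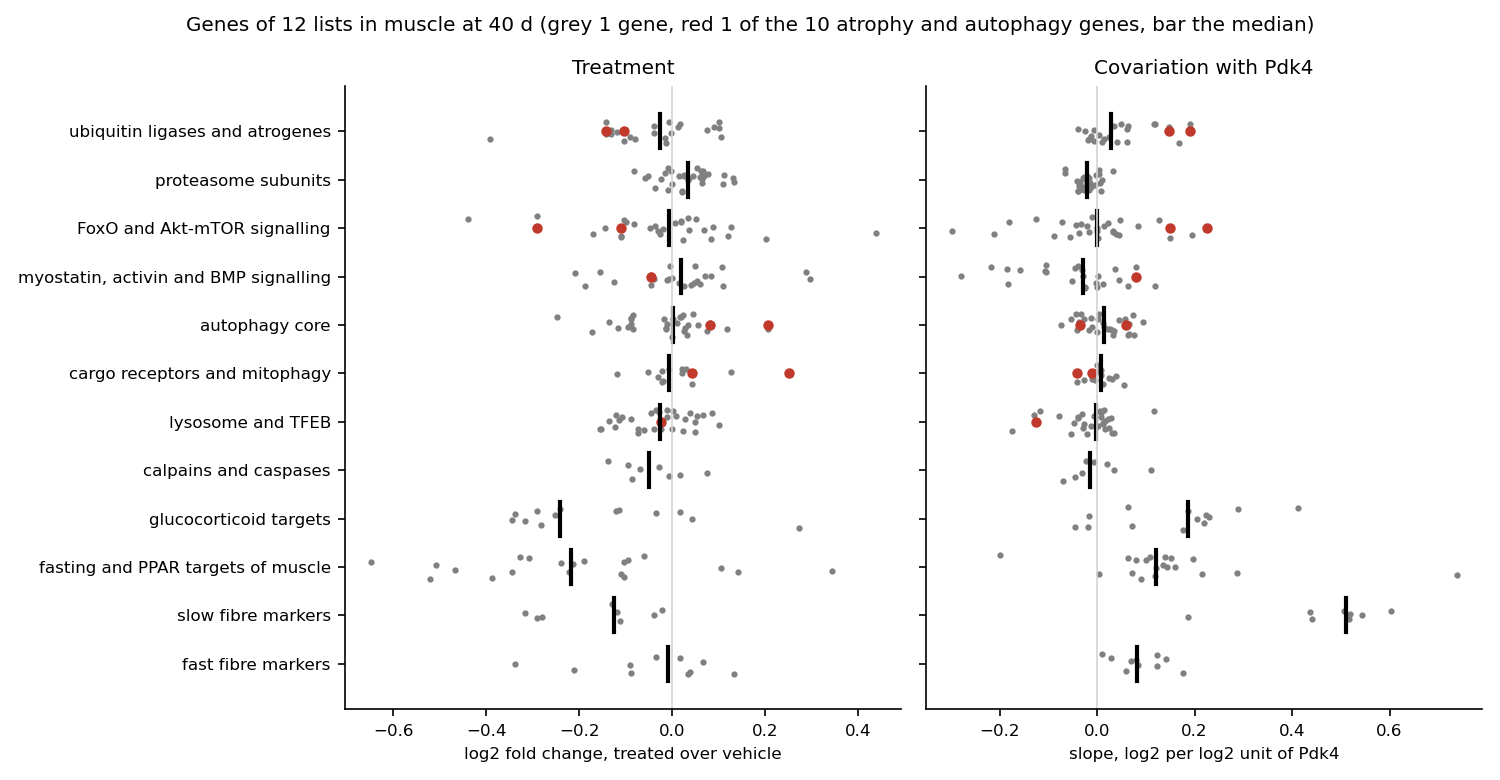
Genes of 12 lists in muscle at 40 d: the log2 fold change, treated over vehicle (left), and the slope on Pdk4 within groups in log2 units per log2 unit (right). Grey points are genes, red points the 10 atrophy and autophagy genes and black bars list medians, which lie near 0 for the atrophy and autophagy lists and, on the right, at 0.51 for slow fibre markers.

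In liver of the same study none of the 10 genes passed either. Trim63 and Mstn are not liver genes: Trim63 had at most 0.113 FPKM in treated and 0.018 FPKM in vehicle livers, and Mstn was listed at 0 in all. Of the other 8, 0 passed in liver (limma), where 28 of 10995 genes did (0.255%). The difference between the effects, muscle minus liver, passed for none of the 8, against 1 of 9436 genes in the table (0.0106%), with a limma adjusted p of 0.997 for each, and 0 of the 8 had an unadjusted p under 0.05, against 492 of all genes (5.21%). The largest differences were 0.22 for Sqstm1 (95% interval -0.18 to 0.62), 0.20 for Gabarapl1 (-0.16 to 0.57) and -0.23 for Foxo1 (-0.92 to 0.46). This fit took the libraries as independent, although liver and muscle carry the same label numbers. With the number as a block none of the 8 passed either.

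At 24 h, with 1 treated and 1 vehicle muscle and so no replicate check, 4 of the 10 genes were higher and 6 lower in the treated muscle. None reached a log2 ratio of 1 in size on log2(FPKM + 1), which 614 of 12878 genes did (4.77%). Mstn differed most, at 19.6 FPKM (795 reads) in the treated and 39.4 FPKM (1680 reads) in the vehicle muscle. Its log2 ratio was -0.97, and -1.01 with a pseudocount of 0.1, just past that size. Trim63 was at 91.6 FPKM in the treated and 144 FPKM in the vehicle muscle, Map1lc3b at 26.8 and 36.1 FPKM, and Sqstm1 at 195 and 252 FPKM, with log2 ratios of -0.64, -0.42 and -0.36. Gabarapl1 was at 69.7 FPKM in the treated and 52.7 FPKM in the vehicle muscle (0.40), Foxo1 at 11.8 and 9.09 FPKM (0.35), and Fbxo30 at 4.49 and 3.83 FPKM (0.18). Bnip3, Ctsl and Foxo3 had log2 ratios of 0.03, -0.07 and -0.19, and Pdk4 was at 255 FPKM in the treated and 170 FPKM in the vehicle muscle (0.58). Each of these ratios was smaller than the range of its gene over the 12 muscles at 40 d. Trim63 ran 3.64-fold there from the lowest to the highest muscle, Mstn 2.68-fold and Foxo1 4.30-fold. A ratio of 1 library to another is usually smaller than a range over 12, so this comparison decides little. The log2 ratios of Mstn, Gabarapl1, Map1lc3b and Sqstm1 exceeded in size their log2 SD at 40 d (0.37, 0.21, 0.34 and 0.26). Those of Trim63, Fbxo30, Foxo1, Foxo3, Bnip3, Ctsl and Pdk4 did not. That SD is of single libraries, and a difference between 1 library and another spreads more widely, so this comparison too decides little. The pair of muscles also differed in fibre, fat and liver markers. Myh2, the myosin of oxidative fast fibres, was at 224 FPKM in the treated and 36.8 FPKM in the vehicle muscle, and Adipoq at 506 and 299 FPKM. Myh7 was at 0.139 and 0.0663 FPKM, far under its range at 40 d, although the tables were normalized separately. The liver genes Alb, Apoa1 and Ttr were at 5.32, 0.0539 and 0 FPKM in the treated muscle and 66.7, 21.4 and 15.5 FPKM in the vehicle muscle. Mitochondrial genes took 10.97% of reads in the treated and 6.94% in the vehicle muscle. The part of these differences in the ratios was not tested.

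Pdk4 varied more between mice than any gene of the set, 11.8-fold over the 12 muscles, and the covariation of each gene with it was asked within groups, so that a shared effect of treatment does not enter. No gene of the 10 followed Pdk4 past the threshold when all genes were tested (limma, group as a term), whereas 10 of 11707 genes did (0.0854%). At an unadjusted p under 0.05 there were 2 of the 10 genes, Fbxo30 and Foxo3, against 1242 of all genes (10.6%). Both slopes were positive, as were 534 of those 1242 (4.56% of all genes). Slopes were positive for 6 of the 10, with a median of 0.07 log2 units per log2 unit of Pdk4, against 0.00 over all genes. Correlations were computed for all 10 genes over the 12 muscles, on values centred within groups, with two-sided permutation p-values.

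Fbxo30 followed Pdk4 most closely. Its Pearson r was 0.71 (permutation p = 0.0153) and its Spearman rho 0.82 (permutation p = 0.0026), with a limma adjusted p of 0.297 over all genes. The relation had the same sign in the 6 treated muscles alone (r = 0.72) and the 6 vehicle muscles alone (r = 0.70), and r stayed between 0.63 and 0.80 as each muscle was left out. In the highest Pdk4 muscles, treated 4_5 (604 FPKM) and vehicle 6_1 (533 FPKM), Fbxo30 was also the highest of its group, at 4.03 and 4.21 FPKM. Without those 2, the muscles farthest from the median of Pdk4, r was 0.56 with a limma adjusted p of 0.525.

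For Foxo3 Pearson's r was 0.65 (permutation p = 0.0299) and Spearman's rho 0.57 (permutation p = 0.0706), with a limma adjusted p of 0.360. It was 0.77 in treated and 0.53 in vehicle muscles, and 0.47 without the 2 farthest muscles. Foxo1 had r = 0.51 (permutation p = 0.123) and rho = 0.38 (permutation p = 0.240). Treated 4_5, with the highest Pdk4, also had the highest Foxo1 of the 12 and the highest Foxo3 of its group, and without the 2 farthest muscles r for Foxo1 was 0.04, so that relation rests on them.

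For the remaining 7 genes no permutation p for Pearson's r or Spearman's rho was under 0.05; by rho, Ctsl (-0.54, permutation p = 0.0829) and Gabarapl1 (0.41, permutation p = 0.224) lay farther from 0 than Foxo1. Pearson's r was 0.36 for Trim63 (permutation p = 0.270), 0.36 for Gabarapl1 (0.302) and 0.28 for Mstn (permutation p = 0.472). It was -0.08 for Bnip3 (permutation p = 0.835), -0.14 for Map1lc3b (0.720), -0.20 for Sqstm1 (0.634) and -0.46 for Ctsl (0.184). Treated 5_5, low in Pdk4 (55.8 FPKM) and high in Trim63, weighs on several of these: without it r was 0.63 for Trim63, 0.69 for Gabarapl1, 0.14 for Map1lc3b and 0.16 for Sqstm1. For Map1lc3b the groups went opposite ways (r = -0.45 in treated and 0.71 in vehicle muscles), and the difference between them was not tested. Vehicle 6_1 was the highest of its group in both Map1lc3b (38.3 FPKM) and Pdk4 (533 FPKM). Treated 5_5 was the highest of its group in Map1lc3b (58.3 FPKM). The r of each group alone was not computed without these libraries.

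**Figure D5:**
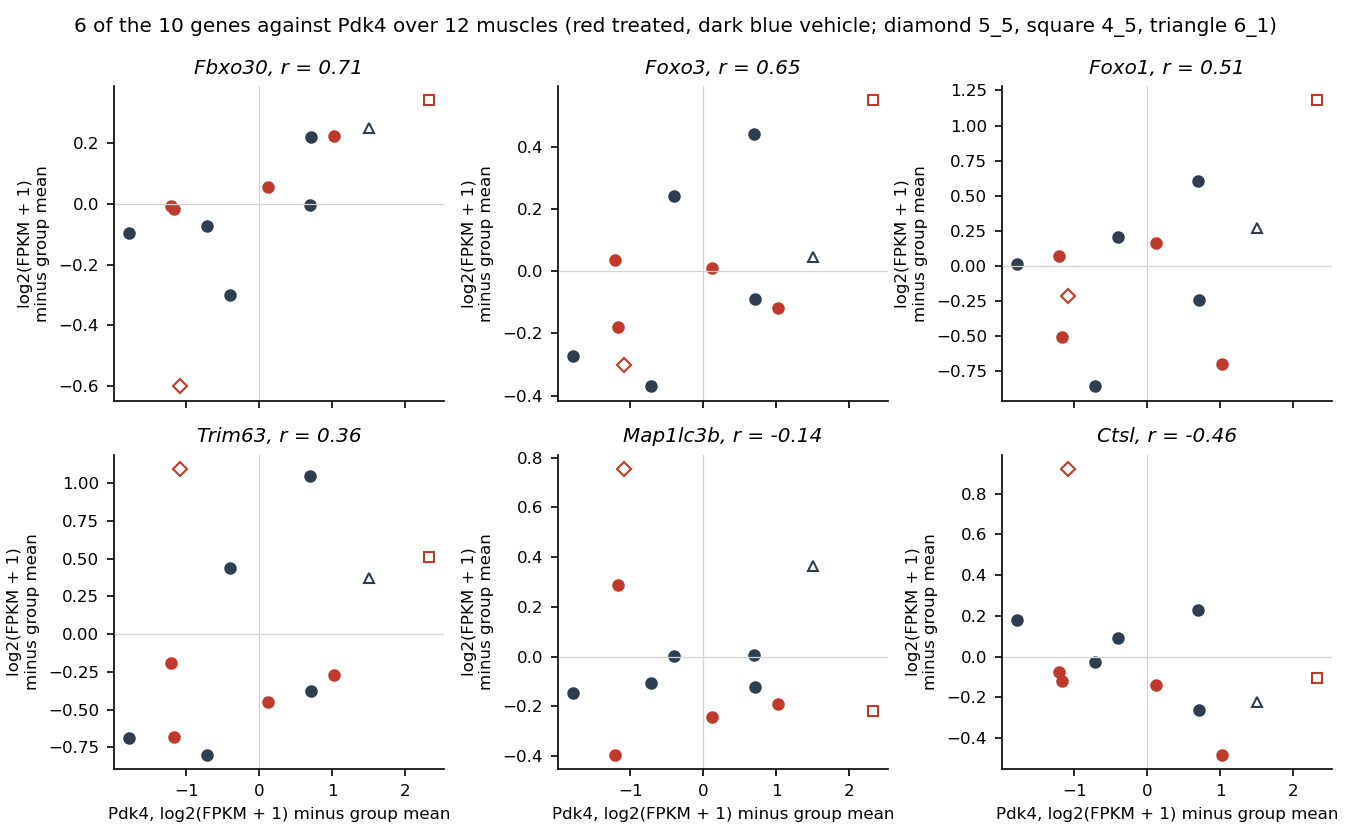
For 6 of the 10 genes, values (vertical axes) against Pdk4 (horizontal axes) over the 12 muscles at 40 d, each as log2(FPKM + 1) minus the mean of its group. Red points are treated and dark blue vehicle muscles; the diamond is treated 5_5, the square treated 4_5 and the triangle vehicle 6_1, and Fbxo30 (r = 0.71) is higher where Pdk4 is higher in both groups while Ctsl (r = -0.46) runs the other way.

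The 10 genes that passed for Pdk4 included none of the set. Ucp3, a mitochondrial carrier induced by fasting, had the smallest adjusted p (slope 0.74 ± 0.08, limma adjusted p 0.0105). Positive slopes also passed for Chac1, Cep85l, Slc43a1, Pik3ip1 and Lnx1, and negative ones for Ttyh2, Cxxc5, Fam102a and G0s2, the inhibitor of fat cell triglyceride lipase (all limma adjusted p of 0.0217 to 0.0493). The count rests on few libraries: it was 0 without vehicle 6_1, 0 without the 2 muscles farthest in Pdk4, and 19 without treated 5_5. Genes of the pathway lists with the smallest p for Pdk4 were Zfand5, a ubiquitin-binding atrophy gene (slope 0.17 ± 0.04, limma adjusted p 0.145), Sesn1, a stress-induced restraint on mTORC1 (0.20 ± 0.05, limma adjusted p 0.191), Smad6, an inhibitor of BMP signalling (-0.16 ± 0.03, limma adjusted p 0.124), Nog, a BMP antagonist (-0.28 ± 0.06, limma adjusted p 0.132), Fstl3, a follistatin-like binder of myostatin and activin (-0.22 ± 0.05, limma adjusted p 0.152), and Igf1, the growth factor upstream of Akt (-0.30 ± 0.08, limma adjusted p 0.199). None of these passed.

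In the fibre, fat and stimulus lists Ucp3 alone passed for Pdk4, and the counts below stand against 5955 positive slopes among the 11707 genes tested and an unadjusted p under 0.05 in 10.6% of them. All 8 slow fibre markers had positive slopes (median 0.51; 7 with an unadjusted p under 0.05), as had all 10 fast fibre markers (median 0.08), while all 9 adipocyte markers had negative ones (median -0.29). Of 13 glucocorticoid targets 10 had positive slopes (median 0.19), led by Klf15 (0.23 ± 0.04, limma adjusted p 0.0852) and Per1 (0.41 ± 0.08, limma adjusted p 0.10). Of 19 fasting and PPAR targets other than Pdk4, 18 had positive slopes. The summed slow fibre markers were 171 to 1569 FPKM in treated and 275 to 1919 FPKM in vehicle muscles, and the part of fibre and fat content in the covariation of Fbxo30 and Foxo3 with Pdk4 was not tested.

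By pattern over the 12 muscles, centred within groups, the genes most like the mean of the 10 (each standardized) were Fbxo36 (r = 0.92), Il4ra (0.91), Pnrc1 (0.91), Tacc2 (0.90) and Zfp511 (0.89). The mean of the 10 was highest in treated 5_5 (0.65 SD units) and 4_5 (0.51) and in vehicle 6_1 (0.49) and 2_1 (0.46), and lowest in vehicle 2_5 (-0.67). The genes most like Pdk4 were Ucp3 (r = 0.94), Lnx1 (0.93), Slc43a1 (0.90), Slc43a2 (0.90) and Mcl1 (0.89). The 10 genes were left out of both rankings, as were genes with predicted or clone-based symbols (such as Gm or Rik). Each list holds the 5 highest r among the other tested genes over 12 muscles, so high values follow in part from that selection.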

How the data were processed

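Per the labels' protocols, RNA came from a Trizol extraction and was made into libraries with a NEBNext Ultra kit. The authors deposited 3 tables of FPKM values, per the file headers, for 40 d muscle, 40 d liver and 24 h. The submitters' processing notes name the builds GRCm38 and mm10; aligner, counter and strand setting: not given in the sources used here. In muscle, 99.98% of values were whole multiples of 1 read within 0.01, so reads per gene were recovered; only limma voom used them. The tables were normalized separately, and tests were made within a table. The mitochondrial share of reads was 5.1% to 9.4% in treated and 7.15% to 10.53% in vehicle muscles at 40 d. Libraries within a group differed by more than sampling noise (chi-square over degrees of freedom 19.5 to 127.29 in treated and 19.76 to 105.29 in vehicle muscles). At this depth a gene near 1 FPKM has few reads, and counting error limits its value.

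Groups came from the labels, whose mouse numbers are taken to mark separate mice. Treated and vehicle muscles share no number, nor the first digit of one, so anything that digit marks cannot be told apart from treatment. The filter asked for 1 FPKM or more in 6 or more of the 12 muscles, and the genes left were tested on log2(FPKM + 1) with limma 3.58.1 in R 4.3.3 (moderated test with a trend, two-sided, 6 against 6, Benjamini-Hochberg over all genes tested, threshold 0.05). Fold changes on this scale understate those of low genes. Covariation was a limma fit on Pdk4 with group as a term, with Pearson and Spearman correlations and 100000 permutations within groups. The tissue difference was a contrast over the 24 libraries at 40 d, taken as independent. Liver and muscle carry the same label numbers, and a fit with the number as a block was an alternative. The tests were also run on simulated data. Each gene was drawn there on its own, with no shift shared across a library. The simulation therefore does not cover libraries like 5_5 and 6_1. Alternatives were other pseudocounts, filters, scalings and fits, and each library left out. The median-of-ratios scaling divided every muscle by the same factor (1.0058), so it nearly repeated the main fit and was no separate check. Scaling by depth was not run. The 10 genes and the lists were chosen with earlier results of these data known. Named beside the 10 were Pdk4, Fbxo32, Foxo4, genes of each list with the smallest p in a fit (not all are named) and the 5 genes most like each pattern; the genes passing for Pdk4, Fstl3, Myh2, Myh4, Myh7, Adipoq, Alb, Apoa1 and Ttr were named after their values were seen. Promoters came from RefSeq (GRCm38.p6), gene positions from the tables, and overlaps from GENCODE, whose coordinates were the same. Scripts used Python 3.11.15 with SciPy 1.17.1, pandas 2.3.3, NumPy 2.4.6 and, for figures, matplotlib 3.10.9.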

Additional observations from a re-analysis of the deposited data

Results flagged for a closer look

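Within each group of 6 muscles at 40 d, a library was marked when its gap to the next was more than 0.625 of the group's range. Of 22 groups examined, 7 held such a library. For independent, normally distributed values the rule marks about 1 in 20. These groups share the same libraries, and the distribution of FPKM was not checked, so that rate is no yardstick here. The share of all genes marked by the rule was not computed. Treated 4_5 stood above the other treated muscles in Foxo1 (18.2 FPKM, next 8.49), Foxo3 (12.3 FPKM, next 8.34) and Pdk4 (604 FPKM, next 243). Treated 5_5 stood above them in Sqstm1 (306.2 FPKM, next 171) and Ctsl (75.2 FPKM, next 37.2). Among vehicle muscles, 6_1 stood above in Map1lc3b (38.3 FPKM, next 29.6) and 2_5 below in Bnip3 (63.7 FPKM, next 77.0).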

How the results depend on the processing

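None of the 10 genes passed for treatment, for Pdk4 or for the tissue difference under any setting run. The number of genes passing for treatment was 1 with a mean of at least 5 FPKM, with quantile normalization and with array weights, and 0 to 1 as each library was left out (1 without vehicle 6_1). For Pdk4 it was 20 with no group term, 0 to 19 as each library was left out, 0 without the 2 libraries farthest in Pdk4, 0 in treated and 1 in vehicle muscles alone, and 0 without treated 5_5 and vehicle 6_1 (a setting chosen after seeing the data). For the tissue difference it was 3 with the label number as a replicate block and 0 to 2 as each number was left out; treated and vehicle muscles share no number. No paired analysis was possible because of this within muscle. Fold changes that turned direction ran, as each library was left out, from -0.32 to 0.11 for Trim63, -0.14 to 0.13 for Mstn, -0.10 to 0.10 for Sqstm1 and -0.21 to 0.0721 for Ctsl. With array weights they were 0.0454 for Mstn and -0.0458 for Sqstm1, and without treated 5_5 and vehicle 6_1 0.0284 for Fbxo30, 0.0787 for Mstn and -0.0437 for Sqstm1. Tissue differences ran from -0.18 to 8.66e-05 for Fbxo30, -0.0148 to 0.16 for Foxo3, -0.0205 to 0.16 for Map1lc3b and -0.47 to 0.34 for Pdk4 (0.0765 with a pseudocount of 0.1). Correlations with Pdk4 ran from -0.25 to 0.0820 for Bnip3, -0.33 to 0.14 for Map1lc3b and -0.40 to 0.16 for Sqstm1, and in vehicle muscles alone were 0.45, 0.71 and 0.27. The cause of these changes was not tested.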
